A study of Mus musculus with 20 samples.

Results

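The genes of the insulin-like growth factor (IGF) axis were followed in the cecum of mice fed raw potato starch (RPS), a resistant starch that reaches the large bowel undigested. The 10 genes, Igf1, Igf2, Igf1r, Igf2r and Igfbp2 to Igfbp7, were chosen by name as the ligands, the receptors and the binding proteins, and each was found in the count table through its Ensembl identifier. All 10 of 10 were among the 19887 genes of the table, and 9 passed the filter on low counts and were among the 15348 genes tested; Igf2 did not. RNA-Seq had been run on bulk cecum tissue of 20 C57BL/6 mice, 5 per diet, whose sex the sample labels do not give. From 3 weeks of age every mouse ate the Total Western Diet (TWD), a purified diet modelled on American intakes, for 6 weeks, and then for 3 more weeks it ate either the TWD alone (0% RPS, the control) or the TWD with 2%, 5% or 10% RPS. All groups therefore shared the TWD background, and no group ate a standard chow. The mouse numbers within a diet given here only name the mice. The libraries held 14967798 to 42687283 counts, and the 7 epithelial markers checked were present in every library, with a summed level of 8970 to 13671 CPM (counts scaled to library size with TMM factors). In 3 diets 1 library stood apart from the other 4, as a chi-square per degree of freedom between pairs of mice: mouse 5 at 0% RPS (90.2 to 106, against 14.6 to 28.3 among the others), mouse 3 at 2% RPS (90.4 to 140, against 13.6 to 55.6) and mouse 4 at 5% RPS (66.6 to 132, against 14.3 to 23.9). Mouse 3 at 2% RPS also had the highest summed B cell, T cell and macrophage markers of all 20 mice, 285, 52.1 and 169 CPM.

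IGF-1 and IGF-2 are small secreted growth factors that act through the IGF-1 receptor, a tyrosine kinase that drives growth and survival through the PI3K and AKT pathway, while the IGF-2 receptor binds IGF-2 without such signalling and takes it up for degradation. In tissue fluid most of the ligand is held by IGF binding proteins, secreted proteins that prolong its life, keep it from the receptor or release it after cleavage by proteases. In the bowel wall IGF-1 is known as a growth factor for the crypt epithelium and for smooth muscle, and the binding proteins come largely from the mesenchyme.

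Of the 9 genes tested, 1 passed the threshold at 10% RPS against 0% RPS, namely Igfbp2, which rose. To pass, a gene needed a fold change of 1.5 or more and, in edgeR's quasi-likelihood test, a p adjusted by Benjamini-Hochberg over all tested genes within 0.05. This threshold was passed by 1.04% of all tested genes, 0.547% upward and 0.495% downward. Igfbp5, the member with the highest level per length in the control cecum, was on average lower at 5% and 10% RPS without passing the threshold. The ligand Igf1, both receptors and the other binding proteins stayed within a narrower range. Igf2 was almost without reads in every mouse.

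Igfbp2 and Igfbp5 are neighbours in the genome as well as the members with the largest differences, so the sequences before their starts are given first. In GRCm39, Igfbp2 (ENSMUSG00000039323) lies at chr1:72863606-72891634 on the plus strand and Igfbp5 (ENSMUSG00000026185) at chr1:72897091-72914043 on the minus strand, so the genes converge and their ends are 5456 bases apart. The 250 bases upstream of each start, read 5′ to 3′ on the strand of the gene, are chr1:72863356-72863605 for Igfbp2 and chr1:72914044-72914293 for Igfbp5. Capitals mark the GC box letters GGGCGG.
Igfbp2: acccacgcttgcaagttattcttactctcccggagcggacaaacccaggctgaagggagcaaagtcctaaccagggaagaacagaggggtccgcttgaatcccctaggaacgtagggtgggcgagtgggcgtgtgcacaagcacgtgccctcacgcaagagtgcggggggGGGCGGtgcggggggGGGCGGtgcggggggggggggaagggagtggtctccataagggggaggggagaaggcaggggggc
Igfbp5: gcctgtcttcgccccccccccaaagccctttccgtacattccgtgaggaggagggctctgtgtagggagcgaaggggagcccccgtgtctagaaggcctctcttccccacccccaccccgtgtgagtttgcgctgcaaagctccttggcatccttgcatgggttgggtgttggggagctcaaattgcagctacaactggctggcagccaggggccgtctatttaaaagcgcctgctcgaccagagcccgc
The Igfbp2 stretch held the GC box letters at 80 to 75 and at 65 to 60 bases before the start, both on the strand of the gene, and had 66% G and C, more than 90.2% of the 21757 promoters measured the same way. The Igfbp5 stretch had 62% G and C, more than 83.4% of them, against a median of 51.2%, and held no GC box letters. On either strand, neither stretch held the letters TATAAA or CCAAT. Of all promoters, 29.9% held GGGCGG, 12.5% TATAAA and 36.1% CCAAT on either strand. The matches describe letters and do not show that a factor binds there.

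The neighbourhood of this pair showed no call besides Igfbp2. Within 1 Mb on either side, 7 other genes were tested, and 0 of them passed the threshold at 10% against 0% RPS in edgeR, with 0 having an unadjusted p under 0.05, beside shares of 1.04% and 19.5% of all tested genes. Their log2 fold changes lay between -0.28 and 0.38.

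Among the ligands, Igf1 was low but present in every mouse. Its level averaged 10.3 ± 1.74 (SD, n = 5) at 0% RPS, 11.1 ± 2.26 at 2%, 11.999 ± 1.39 at 5% and 12.2 ± 1.46 at 10%. Control mice had 12.5, 10.8, 10.7, 9.47 and 7.86 CPM, and mice fed 10% RPS had 13.8, 10.7, 13.7, 11.4 and 11.3 CPM. The groups overlapped, with 2 of 5 mice at 10% RPS above the highest control. The log2 fold change of 0.24 (SE 0.14, 95% interval -0.053 to 0.54, edgeR adjusted p = 0.352) was within the spread between mice.

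Igf2, which is highly expressed before birth and silenced in most rodent tissues after weaning, had 8 counts in all 20 libraries together. It had 0 counts in 15 mice, and no mouse had more than 2. A count of 0 in these libraries allows a level of up to 0.0698 to 0.190 CPM, taking 3 counts as the limit, which covers counting error only. No fold change is given, since every group was below that limit. Igf2 overlaps a gene annotated on its own strand, Gm49394, which had 75 counts in the 20 mice, at most 9 in a mouse, and how reads shared by both genes were assigned is not given in the sources used here.

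Both receptors varied little. Igf1r averaged 26.8 ± 2.48 CPM (SD, n = 5) at 0% RPS, 29.1 ± 2.34 at 2%, 29.1 ± 1.81 at 5% and 29.9 ± 1.99 at 10%, a log2 fold change of 0.16 at 10% RPS (95% interval -0.0085 to 0.32, edgeR adjusted p = 0.282). The highest control mouse had 29.7 CPM, and 3 of 5 mice fed 10% RPS lay above it. Igf2r, with 106 ± 4.23 CPM at 0% RPS and 110 ± 8.29 CPM at 10% RPS, had the narrowest interval of the members, its log2 fold change being 0.053 with a 95% interval from -0.074 to 0.18. A change of either receptor as large as 1.5-fold lay outside these intervals at 10% RPS. Igf1r overlaps the counted gene Pgpep1l on the opposite strand and Igf2r overlaps Airn, also on the opposite strand, and the strand setting of the counting is not given in the sources used here.

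**Figure D1:**
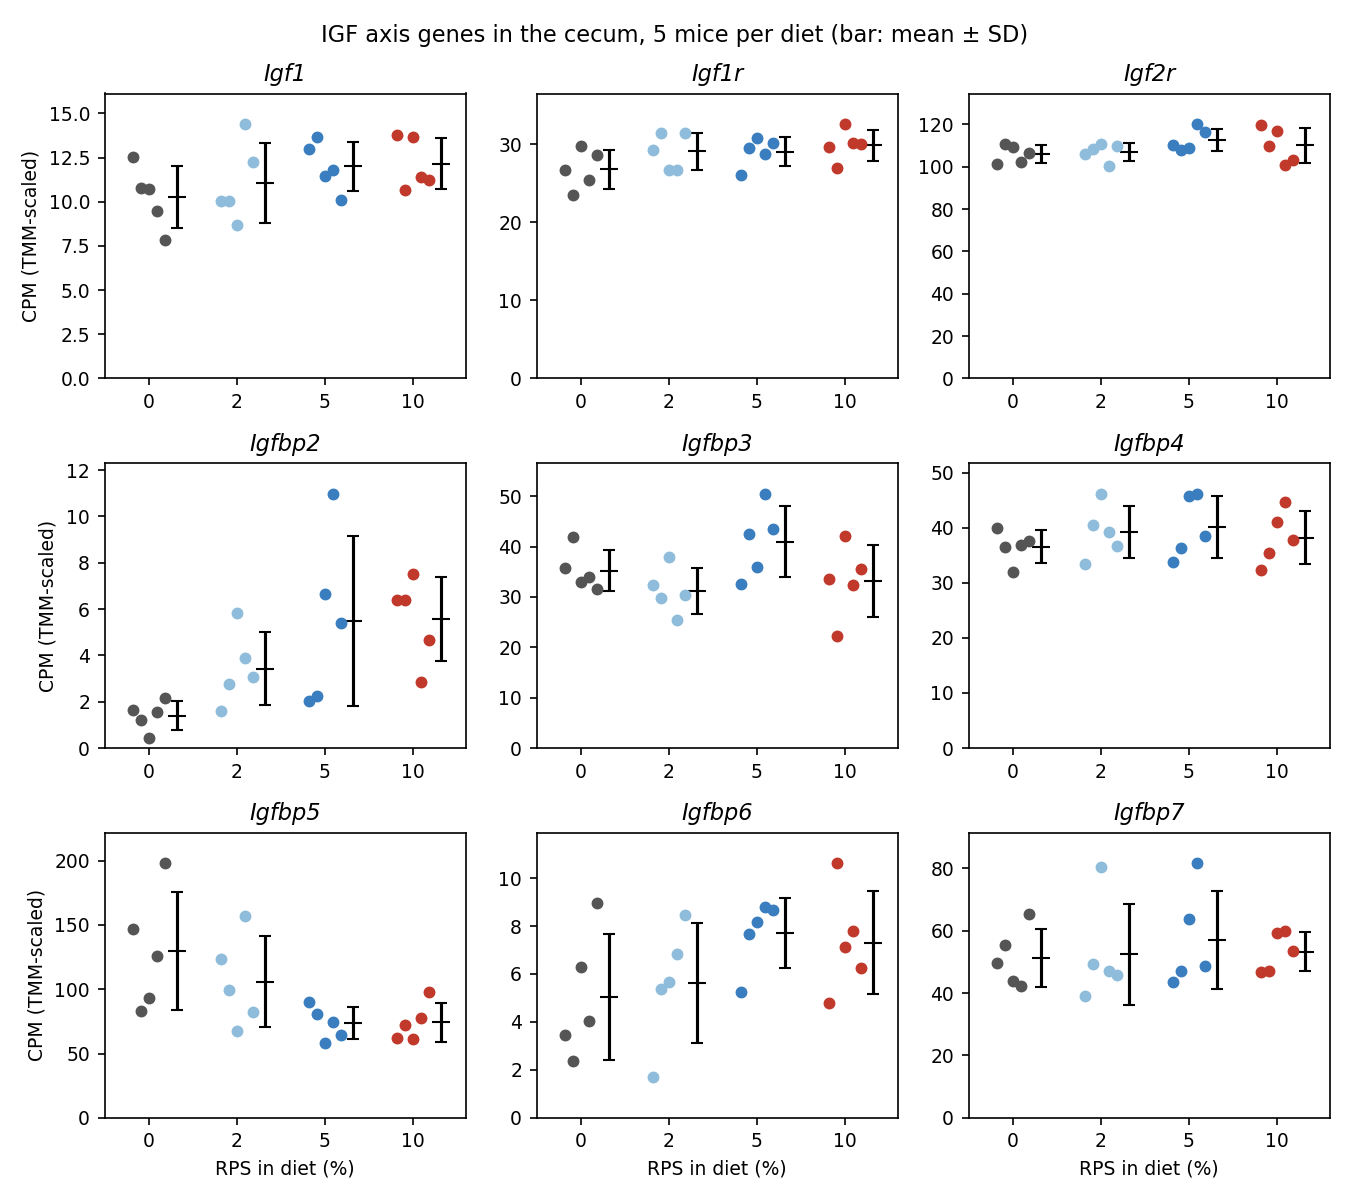
Level in CPM (vertical axes, starting at 0) of the 9 tested IGF axis genes against the percentage of RPS in the diet. Each point is a mouse, and the bar beside each group is the mean ± SD of 5 mice; Igfbp2 is the gene whose 10% RPS mice, 2.87 to 7.52 CPM, all lie above the control mice, 0.450 to 2.15 CPM.

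Among the binding proteins, Igfbp2, which binds both ligands and is known to bind integrins through an RGD motif, showed the clearest difference. In control mice its level was 1.63, 1.23, 0.450, 1.54 and 2.15 CPM. It was 1.61, 2.75, 5.81, 3.89 and 3.07 CPM at 2% RPS. The controls stayed below 2.2 CPM, and 4 of 5 mice fed 2% RPS exceeded all of them. At 5% RPS the values were 2.05, 2.25, 6.66, 10.98 and 5.42 CPM, and at 10% RPS they were 6.38, 6.40, 7.52, 2.87 and 4.65 CPM. Again 4 of 5 mice at 5% RPS lay above the highest control, and all 5 did so at 10% RPS. Igfbp2 was the only member whose 10% and 0% groups did not overlap, a pattern found for 4.88% of all tested genes (1.68% with the 10% mice higher).

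The group means of Igfbp2 were 1.40 ± 0.626 CPM (SD, n = 5), 3.43 ± 1.57, 5.47 ± 3.67 and 5.57 ± 1.82 from 0% to 10% RPS. Against the controls, Igfbp2 was upregulated 3.94-fold at 10% RPS (95% interval 2.03 to 7.67), which is 1.98 ± 0.46 (SE) on the log2 scale, and the edgeR adjusted p was 0.0334. At 5% RPS the 3.85-fold difference was of the same size but missed the threshold, with an edgeR adjusted p of 0.0676, and at 2% RPS the 2.43-fold difference (95% interval 1.26 to 4.71) had an adjusted p of 0.815. These comparisons share the same control mice. Because 12 to 75 reads carried the values of the control mice and 61 to 248 those at 10% RPS, Igfbp2 was measured on far fewer reads than the other binding proteins except Igfbp6.

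The call at 10% RPS did not withstand the loss of most single mice. When each of the 10 mice was left out in turn, the log2 fold change stayed between 1.76 and 2.21, the edgeR adjusted p ranged from 0.0193 to 0.105, and 8 of 10 fits lost the call. It was kept only without mouse 2 of the 0% group or mouse 4 of the 10% group. Without mouse 5 of the 0% group, which stood apart, the log2 fold change at 10% RPS was 2.21 (adjusted p = 0.0572). At 5% RPS it was 1.51 (adjusted p = 0.130) without mouse 4 of the 5% group, and at 2% RPS 1.01 (adjusted p = 0.747) without mouse 3 of the 2% group. The number of genes called over the whole table, 160 with all mice, then ranged from 14 without mouse 3 of the 10% group to 344 without mouse 2 of the 0% group. With DESeq2 the adjusted p of Igfbp2 was 0.000782 at 10% RPS and 0.00185 at 5% RPS. DESeq2 called more genes over the whole table, 368 of 19887 at 10% RPS and 241 of 19887 at 5% RPS.

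Differences between the RPS levels were tested directly, and 0 members passed the threshold in any of these 3 comparisons in edgeR or in DESeq2. Beside this, 0% of all tested genes passed in edgeR, and in DESeq2 1 of 19887 did, from 2% to 10% RPS. An unadjusted p under 0.05 was held by 1 member from 5% to 10% RPS (Igfbp3, beside 2.79% of all tested genes), by 1 from 2% to 10% (Igfbp5, beside 4.69%) and by 2 from 2% to 5% (Igfbp3 and Igfbp5, beside 3.39%). From 5% to 10% RPS the log2 fold change of Igfbp2 was 0.035, with a 95% interval from -0.87 to 0.94, so that an increase of up to 1.91-fold or a decrease to 0.548 of the level was not resolved. From 2% to 10% RPS it was 0.70 (-0.21 to 1.61) and from 2% to 5% RPS 0.66 (-0.25 to 1.57). A straight line over the RPS percentage gave Igfbp2 a slope of 0.17 log2 units per percent (SE 0.051, adjusted p = 0.0968). In this trend 0 of the 9 members passed in edgeR, where 1.11% of all tested genes did, 0.378% upward and 0.730% downward. Igfbp2 and Igfbp5, 2 members, had an unadjusted p under 0.05 there, beside 18.8% of all tested genes, and both passed with DESeq2.

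**Figure D2:**
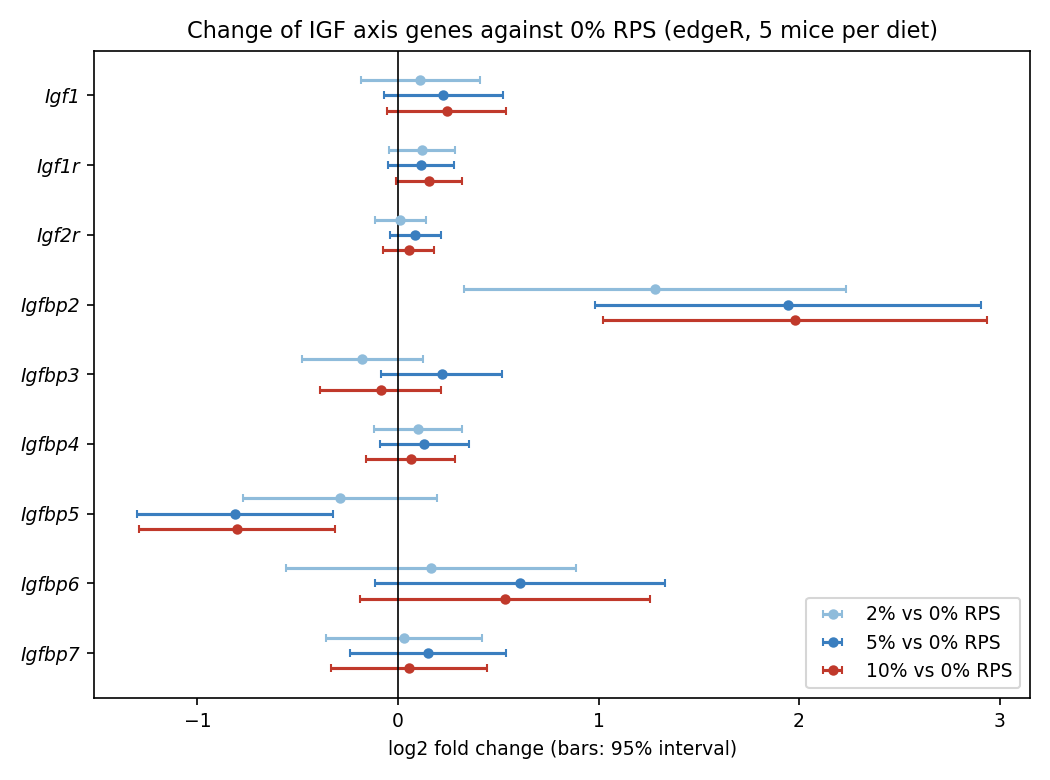
Log2 fold change against 0% RPS (horizontal axis) of the 9 tested members at 2%, 5% and 10% RPS, with bars for the 95% interval of the edgeR fit. The intervals of Igfbp2 lie above 0 in each comparison, those of Igfbp5 lie below 0 at 5% and 10% RPS, and all others include 0.

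Igfbp5, a binding protein retained in the extracellular matrix and long studied in intestinal smooth muscle and fibrosis, was lower on average with more RPS, but not beyond the threshold. Control mice had 146, 83.3, 93.4, 126 and 198 CPM, the widest spread of the 4 diets. At 2% RPS the mice had 123, 99.3, 67.6, 157 and 82.6 CPM. The 2% group thus spanned most of the control range, with 2 of 5 mice below the lowest control. At 5% RPS the values were 90.0, 80.8, 58.4, 74.8 and 64.0 CPM, and at 10% RPS they were 62.2, 72.5, 60.9, 77.6 and 97.8 CPM. In each of these diets 4 of 5 mice lay below the lowest control, and 1 mouse overlapped the control range.

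The means of Igfbp5 were 129 ± 45.8 CPM (SD, n = 5), 106 ± 35.2, 73.6 ± 12.7 and 74.2 ± 14.9 from 0% to 10% RPS. The log2 fold change was -0.80 at 10% RPS (SE 0.23, 95% interval -1.29 to -0.31), with an unadjusted p of 0.00274 and an adjusted p of 0.0757 in the edgeR fit over all genes. It was -0.81 at 5% RPS (adjusted p = 0.110) and -0.29 at 2% RPS (adjusted p = 0.926). DESeq2 placed the gene past the threshold, with adjusted p values of 0.0157 at 10% RPS and 0.0258 at 5% RPS. Without mouse 2 of the 0% group, the control with the lowest Igfbp5, edgeR did so too at 10% RPS, with a log2 fold change of -0.93 and an adjusted p of 0.0356. In the other 9 fits with a mouse left out Igfbp5 did not pass, with adjusted p values up to 0.205, and without mouse 5 of the 0% group, which had the highest Igfbp5 and stood apart, the log2 fold change was -0.59 (adjusted p = 0.187). An unadjusted p under 0.05 at 10% RPS was held by 1 member upward and 1 downward, Igfbp2 and Igfbp5, against 9.74% and 9.75% of all tested genes, 19.5% together.

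Set against each other within a mouse, the levels of this pair separated the mice at 5% and 10% RPS from the controls, but not from each other. The log2 ratio of Igfbp2 to Igfbp5 in CPM ran from -7.70 to -6.08 in the controls, from -5.45 to -2.77 at 5% RPS and from -4.75 to -3.02 at 10% RPS. Every mouse fed 5% or 10% RPS was thus above every control, while the 2% group, -6.26 to -3.54, overlapped the controls in 1 mouse. In fold terms, Igfbp5 reads exceeded Igfbp2 reads 67.5 to 207.5 times in the controls and 8.10 to 27.0 times at 10% RPS. The ratio was formed after both genes had been seen to differ and is given as a description, with no test. Neither gene alone separated all mice at 5% RPS from all controls, and how many other pairs would do so was not examined. Once the diet means were removed, the levels of Igfbp2 and Igfbp5 were not related across the 20 mice (Pearson r = -0.0863, permutation p = 0.734; Spearman rho = -0.0977, permutation p = 0.707; r = -0.170 without the 2 mice farthest from the median of Igfbp2).

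**Figure D3:**
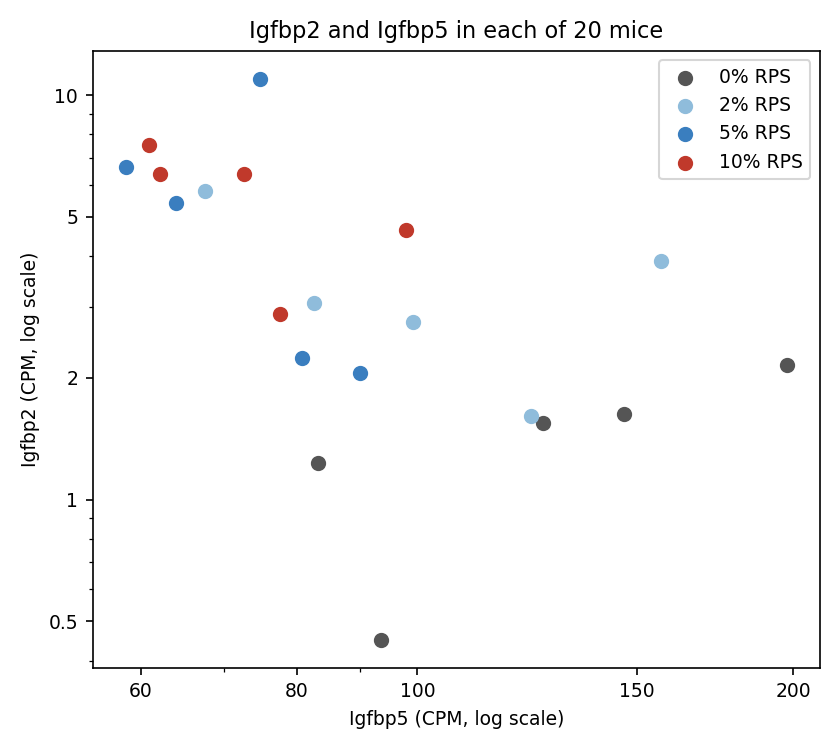
Igfbp2 against Igfbp5 in CPM, both on log scales, with a point for each of the 20 mice coloured by diet. The control mice lie at 83.3 to 198 CPM of Igfbp5 and at or below 2.15 CPM of Igfbp2, and mice fed 5% or 10% RPS lie at 58.4 to 97.8 CPM of Igfbp5 and at 2.05 to 10.98 CPM of Igfbp2.

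Igfbp3, the main carrier of IGF in the circulation, averaged 35.2 ± 4.08 CPM (SD, n = 5) at 0% RPS, 31.1 ± 4.54 at 2%, 40.9 ± 6.99 at 5% and 33.2 ± 7.21 at 10%. Its means had no order by dose. The log2 fold change from 2% to 5% RPS was 0.40 (95% interval 0.093 to 0.70) and from 5% to 10% RPS it was -0.31, with an adjusted p of 0.9998 in edgeR for both. Against the controls its log2 fold changes were -0.18, 0.22 and -0.087 at 2%, 5% and 10% RPS.

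Igfbp4, a binding protein that mostly restrains IGF action, and Igfbp7, a related protein with low affinity for IGF that is rich in vessels, differed little between diets. Igfbp4 had 36.6 ± 2.93 CPM (SD, n = 5) at 0% RPS and 38.2 ± 4.82 CPM at 10% RPS, a log2 fold change of 0.063 with a 95% interval from -0.16 to 0.28. Igfbp7 had 51.3 ± 9.37 and 53.3 ± 6.30 CPM, a log2 fold change of 0.053 with an interval from -0.34 to 0.44. Igfbp7 overlaps the counted gene Polr2b on the opposite strand, while Igfbp2, Igfbp4 and Igfbp5 overlap no annotated gene.

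Igfbp6, which prefers IGF-2 over IGF-1, was higher on average with RPS, with a wide spread. It had 5.03 ± 2.63 CPM (SD, n = 5) at 0% RPS, 5.61 ± 2.50 at 2%, 7.71 ± 1.45 at 5% and 7.31 ± 2.16 at 10%. The log2 fold changes were 0.61 at 5% RPS (95% interval -0.12 to 1.33, edgeR adjusted p = 0.478) and 0.54 at 10% RPS (-0.19 to 1.26, adjusted p = 0.406). Control mice had 3.45, 2.39, 6.30, 4.03 and 8.98 CPM, and mice fed 10% RPS had 4.78, 10.6, 7.11, 7.77 and 6.27 CPM. The groups overlapped in part, with 3 of 5 controls below the lowest mouse at 10% RPS and 1 of 5 mice at 10% RPS above the highest control, mouse 5, whose library stood apart. When single mice were left out, the log2 fold change at 10% RPS ranged from 0.36 to 0.87, the highest without that control mouse, and Igfbp6 passed in 0 of 10 fits, with adjusted p values from 0.205 to 0.646.

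At 2% and 5% RPS, 0 of the 9 members passed the threshold in edgeR, against 0% and 0.195% of all tested genes (0.0977% in each direction at 5% RPS). DESeq2 called 0 members at 2% RPS and 2 at 5% RPS, Igfbp2 and Igfbp5. Over all genes DESeq2 called 5 of 19887 at 2% RPS and 241 of 19887 at 5% RPS, where edgeR called 0 and 30 of 15348. An unadjusted p under 0.05 was held by 1 member at 2% RPS, Igfbp2, where 5.77% of all tested genes had one, and by 2 at 5% RPS, Igfbp2 and Igfbp5, where 13.3% did. The median log2 fold change of the 9 members was 0.063 at 10% RPS, 0.15 at 5% and 0.10 at 2%, beside medians over all tested genes of 0.00405, -0.00182 and 0.00349.

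To compare the levels of different genes, the CPM were divided by the length of the canonical transcript in kilobases. Over the 20 mice Igfbp5 came first with a mean of 15.9 CPM per kb, followed by Igfbp3 with 13.0, Igf2r with 12.2, Igfbp4 with 10.0 and Igfbp7 with 10.0. Igfbp6 at 5.26, Igfbp2 at 3.00, Igf1r at 2.30, Igf1 at 1.61 and Igf2 at 0.00453 CPM per kb completed the order. Some neighbours in this order could not be told apart: Igfbp5 exceeded Igfbp3 in 12 of 20 mice, Igfbp3 exceeded Igf2r in 12 and Igfbp4 exceeded Igfbp7 in 12. Igfbp2 exceeded Igf1r in 9 of 20 mice. The order depended on diet. At 0% RPS Igfbp5 averaged 21.5 CPM per kb and Igfbp3 13.0, at 5% RPS Igfbp5 averaged 12.3 and lay behind Igfbp3 with 15.1 and Igf2r with 12.6, and at 10% RPS these 3 genes lay between 12.3 and 12.4. Igfbp2 exceeded Igf1r in 0 of 5 mice at 0% RPS, 2 at 2%, 3 at 5% and 4 at 10%. Other steps were steady, with Igfbp7 above Igfbp6 and Igf1r above Igf1 in all 20 mice, Igf2r above Igfbp4 in 19 and Igfbp6 above Igfbp2 in 18. With the summed length of all annotated exons in place of the canonical transcript, Igfbp3 and Igf2r changed places and so did Igfbp4 and Igfbp7.

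Added together per kilobase, the 6 binding proteins had nearly the same level in every diet. The sum was 58.9 ± 10.3 CPM per kb (SD, n = 5) at 0% RPS, 56.4 ± 5.47 at 2%, 59.0 ± 8.99 at 5% and 54.8 ± 4.37 at 10%. Within that sum, Igfbp5 made up 35.8 ± 6.80% at 0% RPS and 22.6 ± 3.94% at 10% RPS, and Igfbp2 made up 1.75 ± 0.611% and 7.77 ± 2.68%. Igfbp3, Igfbp4 and Igfbp7 held shares of 22.8%, 16.4% and 16.4% in the controls and of 22.3%, 18.2% and 18.2% at 10% RPS, and Igfbp6 held 6.89 ± 3.01% and 10.98 ± 3.47%. As shares of a sum these values depend on each other, and they rest on the gene lengths used.

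Of the other genes of the pathway, taken from 5 lists, 1 passed the threshold, and it belonged to the proteases that cut the binding proteins and the inhibitors of these proteases. Of that list 7 of 9 genes were tested, and Stc1, which encodes stanniocalcin-1, an inhibitor of the pappalysin proteases that cleave Igfbp4 and Igfbp5, was the only gene called. Control mice had 9.47, 9.08, 5.85, 11.7 and 8.87 CPM of Stc1. Mice at 2% RPS had 6.91, 4.56, 4.52, 5.27 and 2.03 CPM, those at 5% RPS 3.56, 1.70, 1.52, 3.37 and 1.084 CPM, and those at 10% RPS 1.19, 1.06, 2.43, 2.59 and 2.33 CPM. All mice at 5% and 10% RPS lay below the lowest control, a separation found downward for 2.04% and 3.20% of all tested genes, and 4 of 5 did so at 2% RPS. Stc1 fell by 2.24 on the log2 scale at 10% RPS (SE 0.35, 95% interval -2.97 to -1.504, edgeR adjusted p = 0.00818) and by 1.98 at 5% RPS (adjusted p = 0.0359), and its log2 fold change at 2% RPS was -0.96 (adjusted p = 0.815). Leaving out each mouse in turn kept the call at 10% RPS in 10 of 10 fits, with log2 fold changes from -2.36 to -2.08. At 5% RPS the adjusted p ranged from 0.0170 to 0.121 over the 10 fits, and the call was lost in 5 of them, without mouse 1 or 4 of the 0% group or mouse 2, 3 or 5 of the 5% group. The other stanniocalcin and the pappalysins, named after their values were seen, had log2 fold changes at 10% RPS of -0.34 for Stc2, -0.16 for Pappa and -0.59 for Pappa2, with edgeR adjusted p values of 0.226, 0.772 and 0.509.

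Receptor signalling showed no call. All 28 genes from the insulin receptor and its substrates to mTOR were tested, 0 passed at 10% RPS in edgeR, and 2 had an unadjusted p under 0.05 upward and 4 downward, beside 9.74% and 9.75% of all tested genes. Shc1, an adaptor between the receptor and the RAS pathway, had a log2 fold change of -0.21 and an adjusted p of 0.0985. The list's median log2 fold change was 0.018.

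The growth hormone pathway, which drives Igf1 transcription in liver and other tissues, was tested on 8 genes and 0 passed. Socs2, a feedback inhibitor of growth hormone signalling induced by STAT5, had an adjusted p of 0.0347 in edgeR at 10% RPS but its 1.34-fold difference was under the 1.5-fold limit. Its level was 24.6, 27.7, 26.9, 28.5 and 28.4 CPM in the controls and 34.0, 41.8, 40.04, 30.4 and 36.1 CPM at 10% RPS, so the groups did not overlap, as for 1.68% of all tested genes in this direction. Jak2, the kinase bound to the growth hormone receptor, had a log2 fold change of 0.27 (adjusted p = 0.113). In this list of 8 genes 2 had an unadjusted p under 0.05 upward and 1 downward, where 9.74% and 9.75% of all tested genes did.

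Of the list of IGF2 RNA-binding proteins and imprinted growth genes 7 of 10 genes were tested and 0 passed, the smallest p belonging to Hmga2, a chromatin protein that promotes Igf2bp2 transcription, with a log2 fold change of 0.26 (adjusted p = 0.173), and Igf2bp2 itself, with 0.25 (adjusted p = 0.268). Among 6 cell-surface partners of the binding proteins 0 passed in edgeR. The integrin chains Itgb3 and Itga5, the latter part of the fibronectin receptor to which Igfbp2 can bind, had log2 fold changes of 0.48 and 0.82 (adjusted p = 0.164 and 0.169). Across these 5 lists the share called was 1 of 56 genes tested, beside 1.04% of all tested genes.

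**Figure D4:**
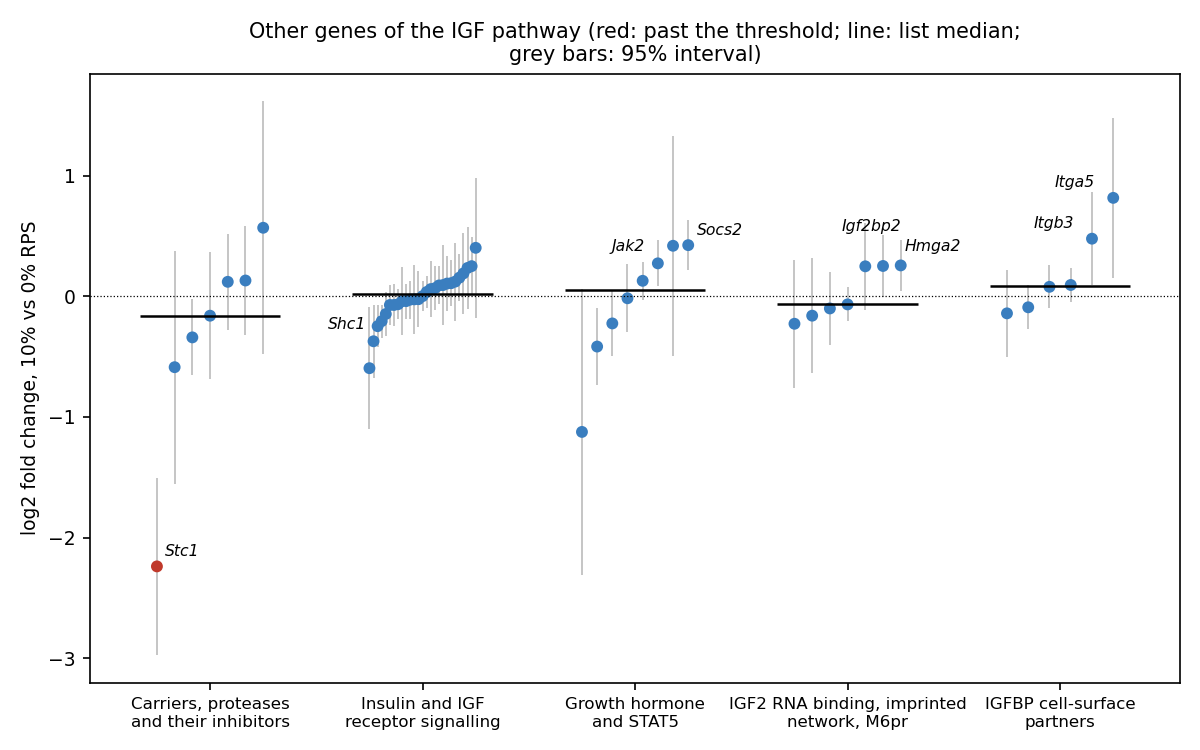
Log2 fold change at 10% against 0% RPS (vertical axis) of the tested genes of the 5 pathway lists that are reported here, sorted within each list, with grey bars for the 95% interval and a black line for the median of the whole list. Stc1, in red, is the only gene past the threshold, at -2.24, while the list medians lie between -0.16 and 0.086.

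The summed markers of smooth muscle and fibroblasts had higher medians at 10% than at 0% RPS, as Igfbp2 did, though 1 of these 14 markers was called. In bulk tissue a change in the number of cells of a type and a change in RNA per cell cannot be told apart. Of 7 smooth muscle markers, all 7 had a positive log2 fold change at 10% RPS, 4 had an unadjusted p under 0.05 upward and 0 downward, beside 9.74% and 9.75% of all tested genes, and 1 was called, the enteric actin Actg2, with a log2 fold change of 1.28 (edgeR adjusted p = 0.0358) that was kept only without mouse 1 or 2 of the 0% group or mouse 4 of the 10% group when single mice were left out (7 of 10 fits lost it, with log2 fold changes from 1.15 to 1.45 and adjusted p from 0.0117 to 0.117). Their summed level ran from 2446 to 5676 CPM in the controls, from 4159 to 9690 CPM at 5% RPS and from 3998 to 6702 CPM at 10% RPS. Of 7 fibroblast markers 5 were positive and 0 were called in edgeR, with 3 of them upward and 2 downward at an unadjusted p under 0.05, and their sum ran from 426 to 584 CPM in the controls and from 522 to 806 CPM at 10% RPS. Of 7 epithelial markers 0 were positive and 0 were called, with 3 downward at an unadjusted p under 0.05, and the sums were 10108 to 13671 CPM and 8970 to 12045 CPM. Other lists had shifted medians too, but in each of them the sums at 0% and 10% RPS overlapped. All 6 B cell markers were positive (median 1.96 on the log2 scale), and their sum had a median of 19.2 CPM (4.96 to 203) in the controls and 223 CPM (14.3 to 273) at 10% RPS. All 7 macrophage markers were positive, with sums of 81.3 to 132 CPM and 104 to 132 CPM. The mesothelial sum had medians of 3.22 and 10.4 CPM, and of 5 adipocyte markers 0 were positive (median -0.72). In these 4 lists 0 genes were called in edgeR, and 1 adipocyte marker had an unadjusted p under 0.05. Of 6 T cell markers 4 were positive (median 0.35), and of 7 markers of enteric glia and neurons 0 were (median -0.30). In both of these lists 0 genes were called in edgeR and 0 had an unadjusted p under 0.05. Of 4 ileal markers tested 1 was positive, with a median of -0.56 on the log2 scale, and 1 was called, Apoa4, at -3.27 (edgeR adjusted p = 0.0140). At an unadjusted p under 0.05 1 was upward, Slc10a2, at 0.90 (edgeR adjusted p = 0.0641), and 1 downward, Apoa4. The part of these shifts in the Igfbp2 result was not tested.

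Between mice, relations were computed over all diets after the diet means had been removed, since 5 mice a diet are too few to do so in each. The log2 level of Igfbp2 followed the fibroblast sum over the 20 mice (Pearson r = 0.701, permutation p = 0.00155, adjusted over 63 relations of members with marker lists 0.0207; Spearman rho = 0.588, permutation p = 0.0123, adjusted 0.0772). Without the 2 mice farthest from the median of Igfbp2, r was 0.640. For the smooth muscle sum r was 0.656 (permutation p = 0.0106, adjusted 0.0568) and rho 0.564 (permutation p = 0.0302, adjusted 0.134), with r = 0.689 without those 2 mice. These relations were not limited to the mesenchymal lists. With the macrophage sum r was 0.572 (permutation p = 0.0150, adjusted 0.0676) and rho 0.636 (permutation p = 0.00785, adjusted 0.0618), with r = 0.495 without 2 mice. Among the members, Igfbp2 followed Igfbp7 (r = 0.666, permutation p = 0.00608, adjusted over 36 pairs 0.0730; rho = 0.692, permutation p = 0.00523, adjusted 0.0471; r = 0.628 without 2 mice) and Igfbp4 (r = 0.603, permutation p = 0.0134, adjusted 0.121; rho = 0.666, permutation p = 0.00484, adjusted 0.0471; r = 0.464 without 2 mice). The mouse with the lowest Igfbp2 at 10% RPS, mouse 4 with 2.87 CPM, was also the lowest of its group in Actg2, with 380 CPM against 555 to 1004 CPM in the others. At 2% RPS, mouse 3 had the highest Igfbp2 of its group, 5.81 CPM, but the lowest Actg2. That was 365 CPM, against 381 to 658 CPM in the others.

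**Figure D5:**
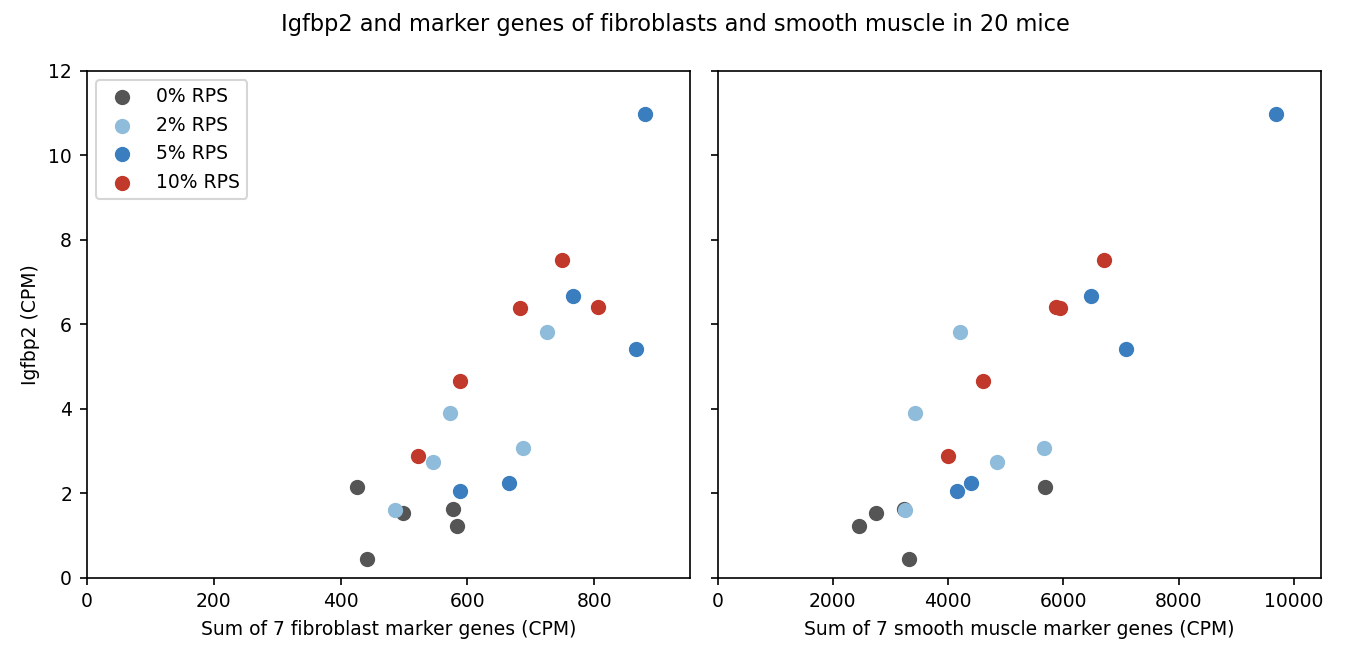
Igfbp2 in CPM (vertical axis) against the summed CPM of 7 fibroblast markers (left) and of 7 smooth muscle markers (right), with a point for each of the 20 mice coloured by diet. The mouse at the top right of both panels is mouse 4 of the 5% group, with 10.98 CPM of Igfbp2, while among the controls the mouse with the most Igfbp2, 2.15 CPM, was mouse 5, whose library stood apart, with the lowest fibroblast sum, 426 CPM, and the highest smooth muscle sum, 5676 CPM against 2446 to 3318 CPM.

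Igfbp5, although it too is known as a mesenchymal gene, was negatively related to the fibroblast sum (r = -0.555, permutation p = 0.0177, adjusted 0.0745; rho = -0.553, permutation p = 0.0185, adjusted 0.0969; r = -0.543 without 2 mice). Its relation with the smooth muscle sum within diets was weak (r = -0.0769, permutation p = 0.774, adjusted 0.886; rho = -0.229, permutation p = 0.363, adjusted 0.558; r = -0.328 without 2 mice). With the epithelial sum r was 0.670 (permutation p = 0.00485, adjusted 0.0377) and rho 0.653 (permutation p = 0.0056, adjusted 0.0599), falling to r = 0.469 without the 2 mice farthest from the median. Both Igfbp5 and the epithelial sum had lower medians at 10% RPS than in the controls, and the part of the epithelium in the Igfbp5 values was not tested.

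Igfbp4 and Igfbp7 varied together between mice of a diet. With diet means removed their r was 0.820 (permutation p = 8e-05, adjusted over 36 pairs of members 0.00288) and rho 0.836 (permutation p = 7e-05, adjusted 0.00252), with r = 0.813 without the 2 mice farthest from the median of Igfbp4. Both followed the summed level of 7 endothelial markers, Igfbp4 with r = 0.762 (permutation p = 0.00011, adjusted over 63 relations 0.00693) and rho = 0.764 (permutation p = 0.00014, adjusted 0.00882), and Igfbp7 with r = 0.733 (permutation p = 0.00023, adjusted 0.00725) and rho = 0.746 (permutation p = 0.0003, adjusted 0.00945). Without 2 mice r was 0.772 and 0.701. The endothelial sum ran from 121 to 162 CPM in the controls and from 113 to 154 CPM at 10% RPS, and 0 of its 7 markers were called in edgeR at 10% RPS, with 2 downward at an unadjusted p under 0.05. Igfbp7 also followed 7 macrophage markers (r = 0.806, permutation p = 0.00098, adjusted 0.0206; rho = 0.741, permutation p = 0.00098, adjusted 0.0206), with r = 0.607 without 2 mice, and 0 of these markers were called, with 0 at an unadjusted p under 0.05. Igfbp3 and Igfbp4 followed the macrophage sum as well, Igfbp3 with r = 0.623 (permutation p = 0.00164, adjusted 0.0207) and rho = 0.609 (permutation p = 0.00611, adjusted 0.0599), and Igfbp4 with r = 0.615 (permutation p = 0.00591, adjusted 0.0377) and rho = 0.615 (permutation p = 0.00666, adjusted 0.0599). Without 2 mice r was 0.662 and 0.612. Igf1r followed the sum of 7 markers of enteric glia and neurons (r = 0.669, permutation p = 0.00519, adjusted 0.0377; rho = 0.723, permutation p = 0.00212, adjusted 0.0334), with r = 0.565 without 2 mice. Igfbp6 followed it with r = 0.653 (permutation p = 0.00516, adjusted 0.0377) and rho = 0.523 (permutation p = 0.0399, adjusted 0.157), with r = 0.541 without 2 mice, and followed the smooth muscle sum with r = 0.587 (permutation p = 0.00599, adjusted 0.0377) and rho = 0.564 (permutation p = 0.0116, adjusted 0.0772), with r = 0.524 without 2 mice. Igf2r and Igfbp5 were negatively related (r = -0.586, permutation p = 0.00436, adjusted over 36 pairs 0.0730; rho = -0.623, permutation p = 0.00417, adjusted 0.0471; r = -0.627 without 2 mice). The values of a mouse all come from 1 library, so the genes compared share its depth and its tissue composition, and no order of cause can be read from the relations.

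Over all 20 mice, with the diet differences kept, the tested genes whose log2 CPM followed Igfbp2 most closely were, out of 15347 compared, Kazn, which encodes a desmosome-associated protein, Krt17, a keratin of stressed epithelia, Trp53i11, Col1a1, the main fibrillar collagen chain, and Des, the intermediate filament of muscle. Their Pearson r ran from 0.878 to 0.888 and stayed between 0.789 and 0.892 after the diet means were removed. They were picked as the highest of all genes, so these values describe the likeness and carry no test. At 10% RPS 0 of these 5 genes passed the threshold, with edgeR adjusted p values from 0.0598 for Krt17 to 0.282 for Trp53i11.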

How the data were processed

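RNA-Seq of cecum tissue was run by the authors with stranded poly(A) libraries. Reads had been trimmed at a quality limit of Q 30, filtered for ambiguous bases, mapped to GRCm39 and counted in CLC Genomics Workbench. The deposited values are raw read counts per Ensembl gene, one column per mouse. The annotation release, the handling of multi-mapping reads and the strand setting are not given in the sources used here. Library totals ran from 14967798 to 42687283 counts, and TMM factors from 0.916 to 1.07. No replicate libraries matched within sampling noise.

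Genes were named from GENCODE M39, which held 19827 of 19887 identifiers. Counts were filtered with filterByExpr (minimum count 10, minimum total 15) and fitted in edgeR 4.0.16 by quasi-likelihood with robust empirical Bayes over all 20 mice, with diet as the only factor, or RPS percentage as a number for the trend, and p-values were adjusted by Benjamini-Hochberg over 15348 genes. The script was tested on simulated data. The edgeR p-values set the effect of diet against the spread between mice, pooled over the diets, with each mouse taken as independent. Cage and litter are not given in the sources used here and were not modelled. Correlations used log2 CPM (prior count 2) with diet means removed and 100000 permutations within diets. Promoter sequences were read from the GRCm39 genome at GENCODE gene starts.

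Alternatives were DESeq2 1.42.0, its size factors, other count filters, a surrogate variable (sva 3.50.0), fits on only the diets compared, no fold change limit, dose ranks in place of percentages, and leaving out 1 mouse at a time. The members and gene lists were chosen with earlier results of these data known. Besides the members, genes are named when a pathway list has a gene past the threshold, otherwise the 2 with the smallest p at 10% RPS per list, plus the 5 genes most correlated with a called member. Igfbp1 and H19 were not analysed here. The values of 1 gene of the signalling list are not reported here.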

Additional observations from a re-analysis of the deposited data

Results flagged for a closer look

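Igfbp7 in mouse 3 of the 2% RPS group was 80.4 CPM, far from the other mice of that diet, the nearest of which had 49.5 CPM. It was the only such value in 36 groups of 5 mice examined, 1 for each of the 9 tested members in each diet. Chance alone gives about 1 in 20, so 1 in 36 is no more than chance would give. The same mouse had the highest Igfbp2 and Igfbp4 of its group, 5.81 and 46.1 CPM, and the lowest Igfbp5, 67.6 CPM. Its whole library stood apart from the rest of the group, with the highest B cell, T cell and macrophage marker sums of all 20 mice, and its part in the Igfbp7 value was not tested.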

How the results depend on the processing

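The number of IGF axis genes called at 10% RPS, 1 in edgeR, was 2 with DESeq2, and ranged from 0 to 2 when single mice were left out. Over all genes, 160 of 15348 were called in edgeR, 397 of 15348 with a surrogate variable and 368 of 19887 with DESeq2. Leaving out single mice gave totals from 14 to 344. At 5% RPS the number of members called was 0 in edgeR, 1 with a surrogate variable (Igfbp2, log2 fold change 1.69, adjusted p = 0.0302) and 2 with DESeq2. With single mice left out it was from 0 to 1, the 1 being Igfbp2 without mouse 1 of the 5% group (log2 fold change 2.16, adjusted p = 0.0365). The totals over all genes were 30 in edgeR, 170 with a surrogate variable, 241 of 19887 with DESeq2 and 114 without that mouse. For the linear trend it was 0 in edgeR, 1 with a surrogate variable, 2 with the rank of the dose, 2 with DESeq2 and from 0 to 2 with single mice left out, 2 without mouse 3 of the 2% group and 1 without mouse 4 of the 10% group. At 2% RPS and between RPS levels 0 members were called under every alternative run, and at most 5 genes of the whole table. Other filters, DESeq2 size factors in edgeR, no fold change limit, no robust step and fits on the 2 diets compared changed none of these member counts. The adjusted p of Igfbp2 at 10% RPS in edgeR then ran from 0.0292 to 0.0439. The log2 fold change of Igfbp7 at 2% RPS turned from 0.032 to -0.028 with a surrogate variable. Leaving out single mice turned the sign of values near 0, which ranged from -0.18 to 0.029 for Igfbp3 and from -0.0064 to 0.17 for Igfbp7 at 10% RPS, from -0.019 to 0.26 for Igfbp7 at 5% RPS, from -0.0036 to 0.037 for Igf2r, from -0.031 to 0.49 for Igfbp6 and from -0.18 to 0.15 for Igfbp7 at 2% RPS, from -0.18 to 0.48 for Igfbp2 and from -0.11 to 0.093 for Igfbp5 from 5% to 10% RPS, from -0.011 to 0.21 for Igfbp3 from 2% to 10% RPS, and, as slopes, from -0.0057 to 0.014 for Igfbp3 and from -0.00064 to 0.010 for Igfbp4. The cause of these shifts was not tested. The alternatives for genes outside the IGF axis were chosen after seeing the data. No paired analysis was possible because the mice of different diets are different animals and the labels give no number shared between diets. Depth limits Igfbp2 most, with 12 counts in the lowest control, and leaves Igf2 unmeasured.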
